A study of Mus musculus with 7 samples.

Results

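The 10 genes described here govern whether a male germ cell keeps the properties of a spermatogonial stem cell or moves toward differentiation: Gfra1, Ret, Etv5, Id4, Zbtb16, Foxo1, Eomes, Kit, Sohlh1 and Sohlh2. They were chosen by name, and all 10 of the 10 symbols have a row among the 20643 genes of the deposited total RNA-seq table and passed the filter on low values. Total RNA was sequenced from prospermatogonia, the fetal male germ cells that have stopped dividing and are building their DNA methylation, sorted from pooled testes of 15.5 dpc fetuses (15 dpc in one label). The study asked what happens when transcription is stopped before it enters the H19/Igf2 imprinting control region. These genes lie elsewhere in the genome.

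WT fetuses were compared with fetuses of 2 mutant genotypes. WT fetuses (2 libraries, replicates 1 and 2) lack the inserted cassette. H19Ter/H19Ter fetuses (2 libraries, replicates 3 and 4) are homozygous for a transcription terminator taken from the rabbit beta-globin gene and placed ahead of the control region, with the selection gene removed by Hprt-Cre. H19Ter+neo/H19Ter+neo fetuses (3 libraries, replicates 5, 6 and 7) are homozygous for the same terminator with the Pgkneo selection gene still beside it. Cells of each genotype were sorted for EGFP from an Oct4 (Pou5f1) promoter transgene of the TgOG2 line, so a library holds the cells in which this promoter was active. The alleles were made in embryonic stem cells of another strain than TgOG2, which is of mixed B6;CBA origin, and descend from chimeras of 1 targeted line. The sources used here give neither the litter behind each library nor whether WT and mutant fetuses had the same strain background, so these cannot be told apart from genotype. Separate labels name the libraries, and p-values measure the spread between these libraries.

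GDNF, a growth factor made by somatic cells of the testis, binds the co-receptor GFRA1 on the germ cell surface and signals through the receptor tyrosine kinase RET. The signal keeps the transcription factor ETV5 and related factors active in stem cells, in which ID4, ZBTB16 (also called PLZF), FOXO1 and, in a subset, EOMES are also found. Differentiation after birth is marked by the receptor tyrosine kinase KIT, and the basic helix-loop-helix factors SOHLH1 and SOHLH2 act in that step.

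Both SOHLH factors belong to a protein class that binds E-boxes, and their genes gave results of opposite sign below, so their promoters are shown first. RefSeq promoter windows on GRCm38.p6, from 250 bases before to 50 bases after a start site, were matched for 8 of the 10 genes (10 windows in all); Ret and Zbtb16 were not matched. The windows were searched for the E-box CACGTG, which reads the same on both strands and is marked by capitals. The window of Sohlh1 (chr2:25847199-25847498, minus strand) held 3 copies, and that of Sohlh2 (chr3:55181794-55182093, plus strand) held 0, as did those of the other 6 matched genes.
Sohlh1: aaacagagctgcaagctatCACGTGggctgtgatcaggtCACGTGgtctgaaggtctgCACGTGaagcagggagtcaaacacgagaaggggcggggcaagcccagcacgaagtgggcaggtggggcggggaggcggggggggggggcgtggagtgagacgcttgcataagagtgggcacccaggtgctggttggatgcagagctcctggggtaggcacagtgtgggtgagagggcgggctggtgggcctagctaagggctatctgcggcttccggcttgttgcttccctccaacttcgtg
Sohlh2: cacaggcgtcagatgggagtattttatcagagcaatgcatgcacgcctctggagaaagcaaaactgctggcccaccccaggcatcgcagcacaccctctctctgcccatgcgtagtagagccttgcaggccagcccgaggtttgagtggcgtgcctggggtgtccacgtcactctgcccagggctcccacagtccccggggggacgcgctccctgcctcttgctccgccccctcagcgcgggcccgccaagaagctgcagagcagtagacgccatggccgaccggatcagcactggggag
The first bases of the 3 Sohlh1 copies stand at -231, -211 and -192 from the start site. At least 1 copy occurs in 7.15% of 32851 RefSeq promoters of the same length, and 3 or more copies in 0.0883%. The looser pattern CANNTG, which includes CACGTG, occurs in 72.3% of the promoters, 5 times in that of Sohlh1 and 1 time in that of Sohlh2. These matches describe the letters of the windows and were not tested for binding.

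Levels are given as CPM, counts of read pairs per M after the scaling of the authors. Differences are log2 differences from limma over all 7 libraries and 20643 genes, with a standard error (SE) and a Benjamini-Hochberg adjusted p, two-sided, called at 0.05. Both mutants were compared with the same 2 WT libraries. Depth ran from 37.5 to 51.2 M read pairs in WT and H19Ter/H19Ter and from 84.1 to 87.3 M in H19Ter+neo/H19Ter+neo. Calls were frequent over all genes. In H19Ter/H19Ter against WT, 14.1% of genes were called higher and 11.0% lower, so 56.2% of calls were higher (72.5% with the same total per library). In H19Ter+neo/H19Ter+neo against WT, 27.7% were called higher and 26.7% lower. The share of rises was smaller among genes with a mean log2 CPM of at least 1, where all 10 genes lie. It was then 46.0% of 3897 calls in H19Ter/H19Ter and 42.5% of 8227 calls in H19Ter+neo/H19Ter+neo, both against WT. In H19Ter+neo/H19Ter+neo against H19Ter/H19Ter, 12.5% were called higher and 15.2% lower, so 45.3% of calls were higher (32.0% with the same total per library).

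In H19Ter/H19Ter, 2 of the 10 genes rose (Sohlh1 and Zbtb16) and 4 fell (Ret, Etv5, Kit and Sohlh2). In H19Ter+neo/H19Ter+neo, 2 rose (Sohlh1 and Gfra1) and 5 fell (Ret, Etv5, Kit, Sohlh2 and Foxo1). Between the mutants 1 was higher (Sohlh1) and 3 were lower (Ret, Etv5 and Zbtb16) in H19Ter+neo/H19Ter+neo. The median log2 differences of the 10 genes were -0.04, -0.18 and -0.25 in these comparisons, beside -0.01, 0.01 and 0.01 over all genes. The libraries of both groups did not overlap for 9, 7 and 5 of the 10 genes, where 67.5%, 71.8% and 56.3% of all genes did not overlap. Sohlh1 and Sohlh2 thus had calls of opposite sign against WT in both mutants. Gfra1 and Ret, the parts of the GDNF receptor, had such calls in H19Ter+neo/H19Ter+neo only. There the call of Gfra1 was lost when either WT library was left out.

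**Figure D1:**
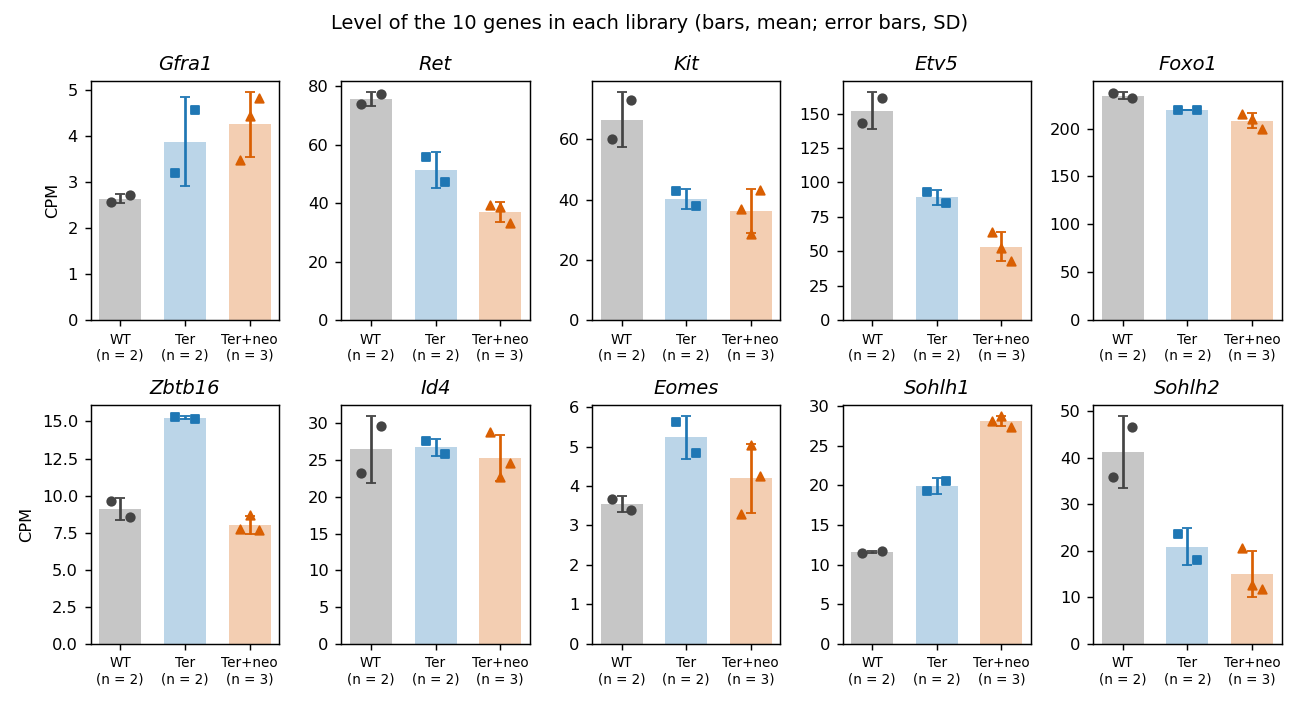
CPM (linear axis from 0) of each gene in each library, grouped by genotype (Ter stands for H19Ter/H19Ter and Ter+neo for H19Ter+neo/H19Ter+neo). Points are libraries, bars are means and error bars are SD. Ret, Etv5 and Sohlh1 form a graded series over the genotypes, and Zbtb16 is highest in H19Ter/H19Ter.

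Gfra1 (ENSMUSG00000025089; GRCm38 chr19:58235604-58455909, minus strand) encodes the GDNF-binding co-receptor, which is tethered to the membrane and has no kinase of its own. Its level was 2.57 and 2.72 CPM in the WT libraries, 3.19 and 4.57 CPM in H19Ter/H19Ter, and 3.48, 4.44 and 4.84 CPM in H19Ter+neo/H19Ter+neo. All 5 mutant libraries were above both WT libraries, and the mutants overlapped each other. These were the lowest levels per length among the 10 genes and rested on 115 to 418 read pairs, so that the 95% Poisson interval of the lower WT value, which covers counting error only, was 2.12 to 3.08 CPM. The rise in H19Ter+neo/H19Ter+neo passed the test (log2 difference 0.67, SE 0.20, adjusted p = 0.0159). In H19Ter/H19Ter the log2 difference was 0.53 (SE 0.22, adjusted p = 0.1002), and between the mutants it was 0.14 (95% interval -0.30 to 0.58, adjusted p = 0.630). The call in H19Ter+neo/H19Ter+neo was lost without WT replicate 1 (adjusted p = 0.0790) or WT replicate 2 (adjusted p = 0.0622). Of its exon bases, 7.60% lie opposite exons of Gm16277, and the sources used here do not say whether the counting used strand.

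Ret (ENSMUSG00000030110; chr6:118151745-118197718, minus strand) encodes the kinase that carries the GDNF signal into the cell. It was at 74.1 and 77.3 CPM in WT, 55.7 and 47.1 CPM in H19Ter/H19Ter, and 39.5, 38.6 and 33.2 CPM in H19Ter+neo/H19Ter+neo. The 3 genotypes did not overlap, with WT highest and H19Ter+neo/H19Ter+neo lowest. Ret fell 1.48-fold in H19Ter/H19Ter (log2 difference -0.56, SE 0.11, adjusted p = 0.00578) and 2.04-fold in H19Ter+neo/H19Ter+neo (-1.03, SE 0.10, adjusted p = 2.85e-05). It was also lower in H19Ter+neo/H19Ter+neo than in H19Ter/H19Ter (-0.47, SE 0.10, adjusted p = 0.00637). The call in H19Ter/H19Ter was lost without WT replicate 2 (adjusted p = 0.0588) or H19Ter/H19Ter replicate 4 (adjusted p = 0.0578), and that between the mutants without H19Ter/H19Ter replicate 3 (adjusted p = 0.0867). RET is also made by neural crest derivatives, and the 6 measured neural and glial markers of 11 listed summed to 34.7 to 35.7 CPM in WT, 31.9 to 33.3 in H19Ter/H19Ter and 28.9 to 30.4 in H19Ter+neo/H19Ter+neo. Of the 6, 0 were called in H19Ter/H19Ter, and 1 was called higher and 3 lower in H19Ter+neo/H19Ter+neo. In the latter, 27.7% of all genes were called higher and 26.7% lower. The part of the lower neural and glial sums in the fall of Ret was not tested, and Sox10, Dbh and S100b were not analysed here.

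The ligand and partners of the receptor were followed in a list of 22 genes, of which 18 had values. In H19Ter/H19Ter 3 rose and 0 fell (median log2 difference of the list 0.04), and in H19Ter+neo/H19Ter+neo 7 rose and 4 fell (median 0.07). Ncam1, an alternative co-receptor partner of GDNF, rose in both mutants (log2 differences 0.82 and 0.75, adjusted p = 0.00182 and 0.000312). The kinase genes Src and Fyn were the others that rose in H19Ter/H19Ter (0.45 and 0.29), and Src also rose in H19Ter+neo/H19Ter+neo (0.40). The adaptor gene Shc1 fell in H19Ter+neo/H19Ter+neo (-0.71, adjusted p = 7.8e-05), as did the kinase gene Akt1 (-0.66, adjusted p = 0.000554), the adaptor gene Grb2 (-0.36) and the PI3K subunit gene Pik3r1 (-0.73). Another GDNF family co-receptor gene, Gfra2, rose in H19Ter+neo/H19Ter+neo with Gfra1 (0.85, SE 0.22, adjusted p = 0.00903). Gfra3, of the same family, also rose there (1.18, SE 0.27, adjusted p = 0.00389). The other rises there were of the kinase genes Lyn (1.23) and Yes1 (0.26) and the PI3K gene Pik3ca (0.24). Gdnf itself, named after its values were seen, lay between 0.528 and 1.54 CPM, from 29 to 90 read pairs a library. Its log2 differences from WT were 0.83 (SE 0.36, adjusted p = 0.114) in H19Ter/H19Ter and 0.08 (SE 0.33, adjusted p = 0.842) in H19Ter+neo/H19Ter+neo.

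Etv5 (ENSMUSG00000013089; chr16:22381309-22439719, minus strand) encodes an ETS transcription factor that GDNF and FGF signals maintain in spermatogonial stem cells. It stood at 142.9 and 161.5 CPM in WT, 93.1 and 85.0 CPM in H19Ter/H19Ter, and 64.1, 52.3 and 43.2 CPM in H19Ter+neo/H19Ter+neo. As with Ret, the genotypes formed 3 separate steps. The fall was 1.71-fold in H19Ter/H19Ter (log2 difference -0.77, SE 0.15, adjusted p = 0.00597) and 2.89-fold in H19Ter+neo/H19Ter+neo (-1.53, SE 0.14, adjusted p = 2.05e-05), the largest fall of the 10 genes in the latter. The mutants differed from each other by -0.76 (SE 0.14, adjusted p = 0.00295). Without WT replicate 2 the call in H19Ter/H19Ter was lost (adjusted p = 0.0678), as it was without H19Ter/H19Ter replicate 4 (adjusted p = 0.0528).

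Among 14 measured genes of FGF reception and feedback, taken with the ETV5 paralogues, 0 rose and 4 fell in H19Ter/H19Ter, and 1 rose and 8 fell in H19Ter+neo/H19Ter+neo. Their median log2 differences were -0.22 and -0.59. Fgfr2, an FGF receptor gene, fell in both (-0.87 and -1.24, adjusted p = 0.00231 and 3.6e-05), and so did Spred2, an inhibitor of ERK signalling (-0.44 and -0.79, adjusted p = 0.0164 and 0.000129). Spry2, a feedback inhibitor of receptor kinases, fell in H19Ter+neo/H19Ter+neo (-0.80, adjusted p = 0.000228) and was at -0.21 in H19Ter/H19Ter (adjusted p = 0.220). The paralogue Etv4, named after its values were seen, had mean levels of 11.9, 7.09 and 4.14 CPM in WT, H19Ter/H19Ter and H19Ter+neo/H19Ter+neo, and fell in the last (-1.56, SE 0.25, adjusted p = 0.000586). In H19Ter/H19Ter its log2 difference was -0.73 (SE 0.28, adjusted p = 0.0796). The other gene that fell in H19Ter/H19Ter was Spred1 (-0.23), and the 1 gene that rose in H19Ter+neo/H19Ter+neo was the ligand gene Fgf9 (1.22). Dusp6, an ERK phosphatase gene also named after its values were seen, fell in both mutants (-1.05 and -1.10, adjusted p = 0.0370 and 0.00900).

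Of the 11 other GDNF-responsive and self-renewal genes, 3 rose and 3 fell in H19Ter/H19Ter, and 4 rose and 4 fell in H19Ter+neo/H19Ter+neo. Bcl6b, a transcriptional repressor gene induced by GDNF, rose (0.77 and 1.03, adjusted p = 0.00449 and 0.000112), whereas Lhx1, a homeobox gene induced by GDNF, fell (-1.75 and -1.97, adjusted p = 0.00331 and 0.000198). Mycn, a growth regulator, fell too (-0.63 and -1.23, adjusted p = 0.0261 and 0.000145). The other calls were rises of the kinase gene Tec (0.80 and 1.01) and of Egr2, an early growth response factor (0.78 and 1.59), and, in H19Ter+neo/H19Ter+neo, a rise of T (0.58) and a fall of Egr3 (-1.52); Nanos2, described below, fell in both. The list thus did not move in a single direction, and its median log2 differences were 0.01 and -0.01.

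**Figure D2:**
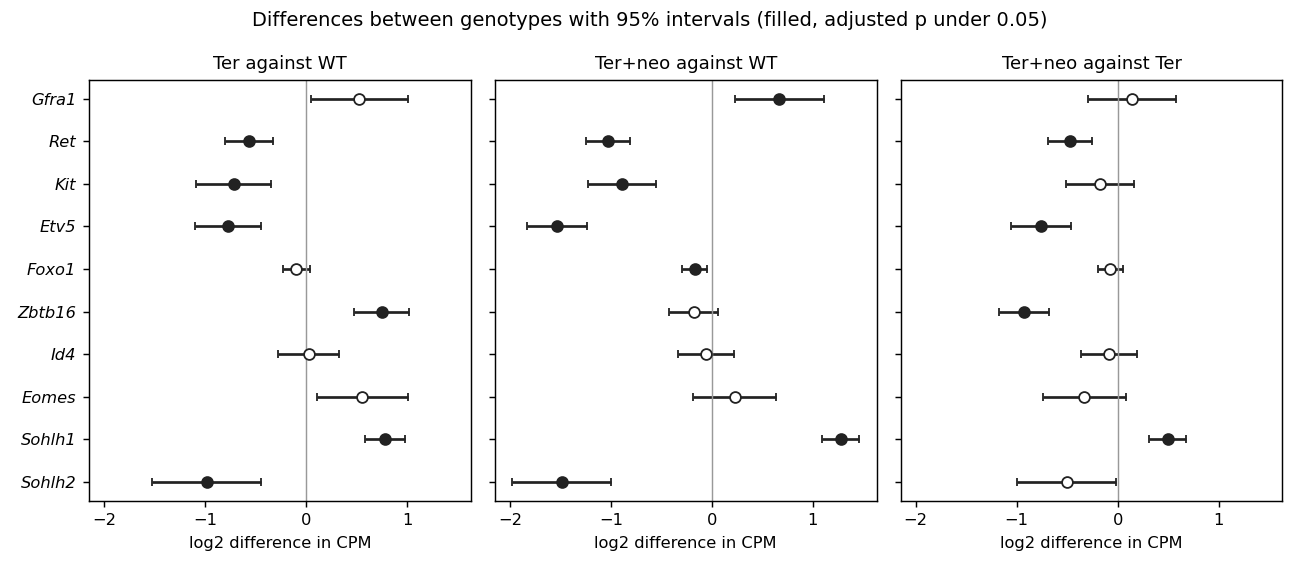
log2 differences in CPM (points) with 95% intervals (lines) from limma for the 10 genes in the 3 comparisons. Filled points passed an adjusted p of 0.05, Id4 and Eomes are open in each comparison, and Sohlh1 is the only gene filled on the higher side in all 3.

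Zbtb16 (ENSMUSG00000066687; chr9:48654297-48836222, minus strand) encodes PLZF, a zinc finger repressor required for stem cell maintenance. It had 9.60 and 8.58 CPM in WT, 15.3 and 15.2 CPM in H19Ter/H19Ter, and 7.72, 8.71 and 7.65 CPM in H19Ter+neo/H19Ter+neo. Only H19Ter/H19Ter stood apart, above each of the other 5 libraries. Zbtb16 rose 1.68-fold in H19Ter/H19Ter against WT (log2 difference 0.75, SE 0.12, adjusted p = 0.00289). In H19Ter+neo/H19Ter+neo against WT its difference was -0.18 (95% interval -0.42 to 0.07, adjusted p = 0.190), and it was 1.90-fold lower there than in H19Ter/H19Ter (-0.93, SE 0.11, adjusted p = 0.000377).

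The gene encoding the deacetylase-recruiting corepressor NCOR1, one of 12 genes listed as ZBTB16 partners and relatives, fell in both mutants (-0.41 and -0.88, adjusted p = 0.00471 and 1.2e-05). Sin3a, which encodes a scaffold of histone deacetylase complexes, was at -0.05 in H19Ter/H19Ter (adjusted p = 0.550) and fell in H19Ter+neo/H19Ter+neo (-0.53, adjusted p = 3.6e-05). Of the 12 genes, 0 rose and 2 fell in H19Ter/H19Ter, and 2 rose and 6 fell in H19Ter+neo/H19Ter+neo, with median log2 differences of -0.10 and -0.39. The other gene that fell in H19Ter/H19Ter was Hdac1, a histone deacetylase (-0.42), which also fell in H19Ter+neo/H19Ter+neo (-0.81). The 2 that rose in H19Ter+neo/H19Ter+neo were Zbtb20 (0.27) and the Polycomb gene Bmi1 (0.50).

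Foxo1 (ENSMUSG00000044167; chr3:52268336-52353221, plus strand) encodes a forkhead factor restrained by PI3K-AKT signalling and needed in spermatogonial stem cells. Its level was 236.8 and 231.9 CPM in WT, 219.2 and 219.3 CPM in H19Ter/H19Ter, and 215.1, 210.1 and 199.5 CPM in H19Ter+neo/H19Ter+neo. The genotypes did not overlap, but the steps between them were small. The fall in H19Ter+neo/H19Ter+neo was 1.13-fold (log2 difference -0.17, SE 0.06, adjusted p = 0.0242). That call was lost without WT replicate 1 (adjusted p = 0.120), WT replicate 2 (adjusted p = 0.0819) or H19Ter+neo/H19Ter+neo replicate 7 (adjusted p = 0.0601). In H19Ter/H19Ter the difference was -0.10 (95% interval -0.23 to 0.04, adjusted p = 0.271). Gm20402 exons lie opposite 7.78% of the exon bases.

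Of 12 genes of the FOXO and PI3K-AKT list, 0 rose in either mutant, while 1 fell in H19Ter/H19Ter and 4 fell in H19Ter+neo/H19Ter+neo. Pik3r2, a PI3K regulatory subunit gene, was at 0.10 in H19Ter/H19Ter (adjusted p = 0.412) and fell in H19Ter+neo/H19Ter+neo (-0.76, adjusted p = 4.8e-05). Akt1, given above, and Foxo4 (-0.29) also fell there. The median log2 differences of the list were -0.01 and -0.07.

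Id4 (ENSMUSG00000021379; chr13:48261228-48266026, plus strand) encodes an inhibitor of basic helix-loop-helix factors that marks cells with high stem cell activity. It was at 23.2 and 29.6 CPM in WT, 27.6 and 25.9 CPM in H19Ter/H19Ter, and 28.8, 22.7 and 24.6 CPM in H19Ter+neo/H19Ter+neo. The genotypes overlapped throughout. Its log2 differences from WT were 0.02 in H19Ter/H19Ter (95% interval -0.28 to 0.33, adjusted p = 0.912) and -0.06 in H19Ter+neo/H19Ter+neo (95% interval -0.33 to 0.22, adjusted p = 0.711). Of 6 related ID and E protein genes, 1 rose and 1 fell in H19Ter/H19Ter (median log2 difference -0.21), and 0 rose and 3 fell in H19Ter+neo/H19Ter+neo (median -0.12). Tcf3, an E protein gene, fell in both (-0.22 and -0.44, adjusted p = 0.0489 and 0.000375). Tcf4 was at -0.10 (adjusted p = 0.279) and fell in H19Ter+neo/H19Ter+neo (-0.18, adjusted p = 0.0264), and Tcf12 was at -0.20 and -0.02 (adjusted p = 0.0533 and 0.762). The remaining calls were a rise of Id1 in H19Ter/H19Ter (1.04) and a fall of Id3 in H19Ter+neo/H19Ter+neo (-1.23), whose highest levels in any library were 1.65 and 3.05 CPM.

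Eomes (ENSMUSG00000032446; chr9:118478212-118486132, plus strand) encodes a T-box factor found in a subset of stem cells. It had 3.68 and 3.39 CPM in WT, 5.62 and 4.85 CPM in H19Ter/H19Ter, and 3.30, 5.05 and 4.25 CPM in H19Ter+neo/H19Ter+neo, from 151 to 440 read pairs. H19Ter/H19Ter lay above WT, and H19Ter+neo/H19Ter+neo spanned both. The log2 differences from WT were 0.56 (SE 0.20, adjusted p = 0.0682) and 0.23 (SE 0.19, adjusted p = 0.323). The first passed the test when only the 2 groups entered the fit (adjusted p = 0.0272) or without H19Ter+neo/H19Ter+neo replicate 5 (adjusted p = 0.0292). Of 13 measured T-box relatives, 4 rose and 0 fell in H19Ter/H19Ter, and 7 rose and 2 fell in H19Ter+neo/H19Ter+neo. Tbx20 rose in both (0.89 and 1.18, adjusted p = 0.0114 and 0.000407), and so did Tbx15 (0.82 and 1.11, adjusted p = 0.0399 and 0.00264), with Tbx3 (1.82 in H19Ter/H19Ter) and Tbx19 (1.39). The levels of Tbx20 and Tbx15 were low, with WT means of 2.11 and 1.44 CPM. Tbx4 was at -0.01 in H19Ter/H19Ter (adjusted p = 0.958) and fell in H19Ter+neo/H19Ter+neo (-0.52, adjusted p = 0.000777), as did Mga (-0.15). The median log2 differences of the relatives were 0.40 and 0.58.

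Kit (ENSMUSG00000005672; chr5:75574916-75656722, plus strand) encodes the receptor tyrosine kinase for KIT ligand, which is used by migrating germ cells and again by differentiating spermatogonia. It was at 60.0 and 72.9 CPM in WT, 42.7 and 37.9 CPM in H19Ter/H19Ter, and 37.0, 28.5 and 43.1 CPM in H19Ter+neo/H19Ter+neo. All mutant libraries were below both WT libraries, and the mutants overlapped. Kit fell 1.64-fold in H19Ter/H19Ter (log2 difference -0.72, SE 0.17, adjusted p = 0.0132) and 1.85-fold in H19Ter+neo/H19Ter+neo (-0.89, SE 0.15, adjusted p = 0.000768). The difference between the mutants was -0.17 (95% interval -0.51 to 0.16, adjusted p = 0.424). Without WT replicate 2 or H19Ter/H19Ter replicate 4, the call in H19Ter/H19Ter was lost (adjusted p = 0.128 and 0.0945). Mast cells also carry KIT, and the 2 measured mast cell markers of 8 listed (Hdc and Srgn) summed to 5.63 to 6.63 CPM in WT, 6.37 to 7.63 in H19Ter/H19Ter and 6.70 to 7.19 in H19Ter+neo/H19Ter+neo. Their part in the fall of Kit was not tested. Kitl, its ligand gene, named after its values were seen, had log2 differences from WT of 0.05 (SE 0.27, adjusted p = 0.915) and 0.07 (SE 0.25, adjusted p = 0.826).

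Sohlh1 (ENSMUSG00000059625; chr2:25842995-25847248, minus strand) encodes a germ cell basic helix-loop-helix factor of early differentiation. It was at 11.5 and 11.7 CPM in WT, 19.2 and 20.6 CPM in H19Ter/H19Ter, and 28.2, 28.7 and 27.4 CPM in H19Ter+neo/H19Ter+neo. The spread within each genotype was small beside the steps between them. Sohlh1 rose 1.72-fold in H19Ter/H19Ter (log2 difference 0.78, SE 0.09, adjusted p = 0.000731) and 2.42-fold in H19Ter+neo/H19Ter+neo (1.28, SE 0.08, adjusted p = 4.78e-06), and was 1.41-fold higher in the latter than in the former (0.50, SE 0.08, adjusted p = 0.00207). Its rise in H19Ter+neo/H19Ter+neo had the smallest p of the 10 genes in any comparison.

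Sohlh2 (ENSMUSG00000027794; chr3:55182028-55209957, plus strand) encodes the partner of SOHLH1, with which it can form a dimer. It had 35.8 and 46.7 CPM in WT, 23.6 and 18.0 CPM in H19Ter/H19Ter, and 20.7, 12.7 and 11.7 CPM in H19Ter+neo/H19Ter+neo. Every mutant library was below WT, and H19Ter+neo/H19Ter+neo replicate 5 lay among the H19Ter/H19Ter libraries. Sohlh2 fell 1.98-fold in H19Ter/H19Ter (log2 difference -0.98, SE 0.24, adjusted p = 0.0168) and 2.80-fold in H19Ter+neo/H19Ter+neo (-1.49, SE 0.22, adjusted p = 0.000344). Between the mutants the difference was -0.50 (SE 0.22, adjusted p = 0.117), and -0.76 (adjusted p = 0.00369) without H19Ter+neo/H19Ter+neo replicate 5. The call in H19Ter/H19Ter was lost without WT replicate 2 (adjusted p = 0.149) or H19Ter/H19Ter replicate 4 (adjusted p = 0.122).

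Among 19 measured genes of KIT ligand and spermatogonial differentiation, 5 rose and 2 fell in H19Ter/H19Ter, and 4 rose and 7 fell in H19Ter+neo/H19Ter+neo (medians 0.12 and 0.07). Crabp1, which binds retinoic acid in the cytoplasm, rose in both (0.58 and 1.36, adjusted p = 0.0174 and 3.4e-05), as did Tbpl1, a germ cell relative of the TATA-binding protein (0.26 and 0.72, adjusted p = 0.0270 and 2.7e-05). Dnmt3b, a de novo DNA methyltransferase gene, rose too (0.67 and 0.46), as did Figla, another germ cell helix-loop-helix gene (0.85 and 1.43). Rarg rose in H19Ter/H19Ter (0.33). Rxrb (-0.51 and -0.66) and Dmrt1 (-0.24 and -0.44) fell in both mutants. Rxra (-0.23), Crabp2 (-0.64), Rec8 (-0.40) and Tex14 (-0.32) were called lower than WT in H19Ter+neo/H19Ter+neo only. Rara, a retinoic acid receptor gene, was at -0.04 in H19Ter/H19Ter (adjusted p = 0.783) and fell in H19Ter+neo/H19Ter+neo (-0.62, adjusted p = 0.000188). Of 25 other genes of undifferentiated spermatogonia, 3 rose and 7 fell in H19Ter/H19Ter, and 6 rose and 10 fell in H19Ter+neo/H19Ter+neo (medians -0.04 and -0.16). Among these 25, Nanos2, Lhx1, Bmi1 and Ddit4 are also counted in lists above. The 3 that rose in H19Ter/H19Ter were Shisa6 (1.63), Upp1 (0.69) and the surface antigen gene Thy1 (1.53). All 3 also rose in H19Ter+neo/H19Ter+neo (1.85, 0.58 and 1.47). Cdh1, the E-cadherin gene, fell in both (-0.42 and -1.21, adjusted p = 0.0278 and 2.2e-05). Lin28a, which encodes an RNA-binding protein, was at -0.25 in H19Ter/H19Ter (adjusted p = 0.0506) and fell in H19Ter+neo/H19Ter+neo (-0.86, adjusted p = 1.9e-05). Bmi1 rose in H19Ter+neo/H19Ter+neo (adjusted p = 0.000162) and was at -0.04 in H19Ter/H19Ter (adjusted p = 0.690). Nanos2, an RNA-binding regulator of male germ cell fate named after its values were seen, fell in both (-0.51 and -1.12, adjusted p = 0.0481 and 0.000209), from a mean of 57.9 CPM in WT to 40.6 and 27.1 CPM.

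**Figure D3:**
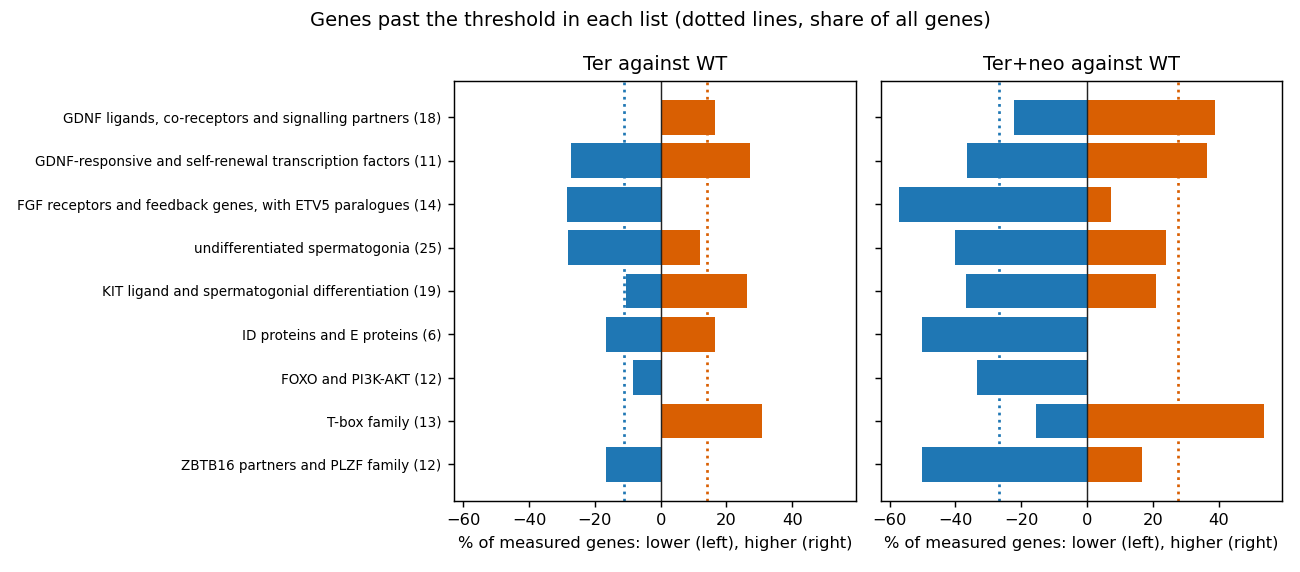
Percent of the measured genes of each list called higher (right) or lower (left) than WT in H19Ter/H19Ter and in H19Ter+neo/H19Ter+neo, with the number measured in brackets. Dotted lines are the shares of all genes, 14.1% and 11.0% in the left panel and 27.7% and 26.7% in the right. The FGF list, undifferentiated spermatogonia and the ZBTB16 partners lie beyond the line on the lower side in both panels and short of it on the higher side.

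To compare levels between genes, CPM was divided by the length of the exons in kb. In WT the mean order was Etv5 (37.1 CPM per kb), Foxo1 (27.1), Sohlh2 (17.4), Ret (11.2), Sohlh1 (8.98), Kit (7.46), Id4 (6.87), Zbtb16 (1.72), Eomes (0.852) and Gfra1 (0.483), and only the libraries of Kit and Id4 overlapped among neighbours. In H19Ter/H19Ter, Foxo1 (25.3 CPM per kb) stood above Etv5 (21.7) and Sohlh1 (15.5) was the third, while Sohlh2 (8.82) and Ret (7.60) overlapped, as did Ret and Id4 (6.94). In H19Ter+neo/H19Ter+neo, Sohlh1 (21.8 CPM per kb) was next after Foxo1 (24.0) and ahead of Etv5 (13.0), and Sohlh2 (6.36) overlapped with both of its neighbours, Id4 (6.58) and Ret (5.49). At the low end Eomes (1.01 CPM per kb) and Gfra1 (0.777) overlapped. The place of Kit depended on the length used, since with its longest transcript in place of all exons its WT libraries were at 11.5 and 13.9 CPM per kb.

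**Figure D4:**
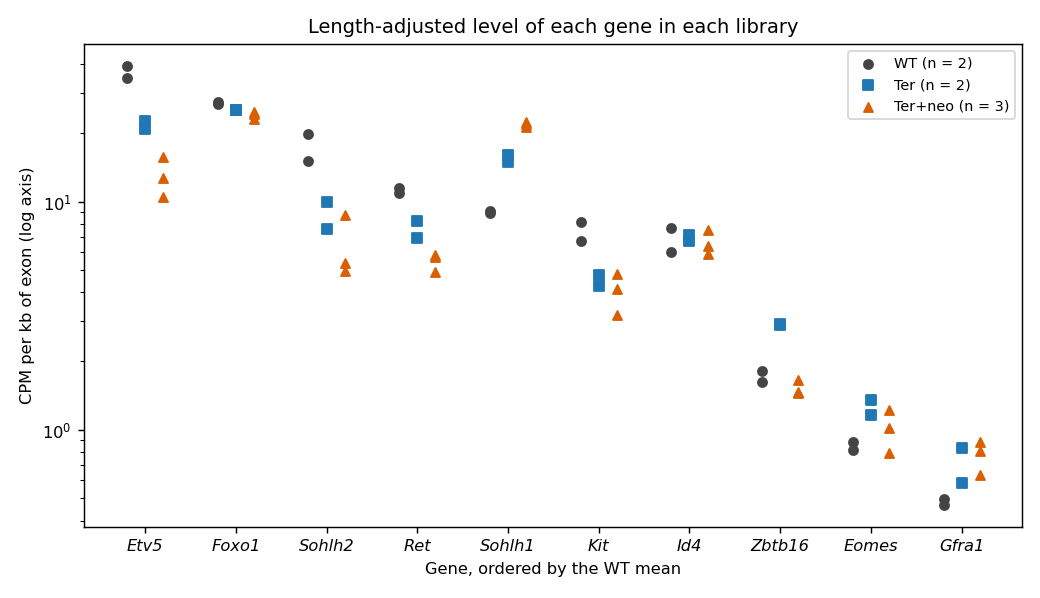
CPM per kb of exon (log axis) of each gene in each library, in the order of the WT means. Points are libraries, with a colour and shape for each genotype. Sohlh1 moves from the fifth place in WT to the second in H19Ter+neo/H19Ter+neo, where it lies between 21.3 and 22.3 CPM per kb.

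Ratios within a library restate these differences without the scaling between libraries. Sohlh1 was at 0.459 to 0.588 times the length-adjusted level of Sohlh2 in the WT libraries, at 1.49 to 2.10 times in H19Ter/H19Ter, and at 2.50 to 4.28 times in H19Ter+neo/H19Ter+neo. The more abundant SOHLH transcript thus differed between WT and both mutants. Gfra1 was at 0.0428 to 0.0434 times the level of Ret in WT, 0.0708 to 0.120 times in H19Ter/H19Ter and 0.109 to 0.180 times in H19Ter+neo/H19Ter+neo. Kit stood at 14.4 to 16.5 times Gfra1 in WT, 5.10 to 8.22 times in H19Ter/H19Ter and 3.94 to 6.52 times in H19Ter+neo/H19Ter+neo. The ratio of Kit to Ret was 0.615 to 0.716 in WT, 0.581 to 0.611 in H19Ter/H19Ter, just below WT, and 0.560 to 0.986 in H19Ter+neo/H19Ter+neo, which overlapped with WT.

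**Figure D5:**
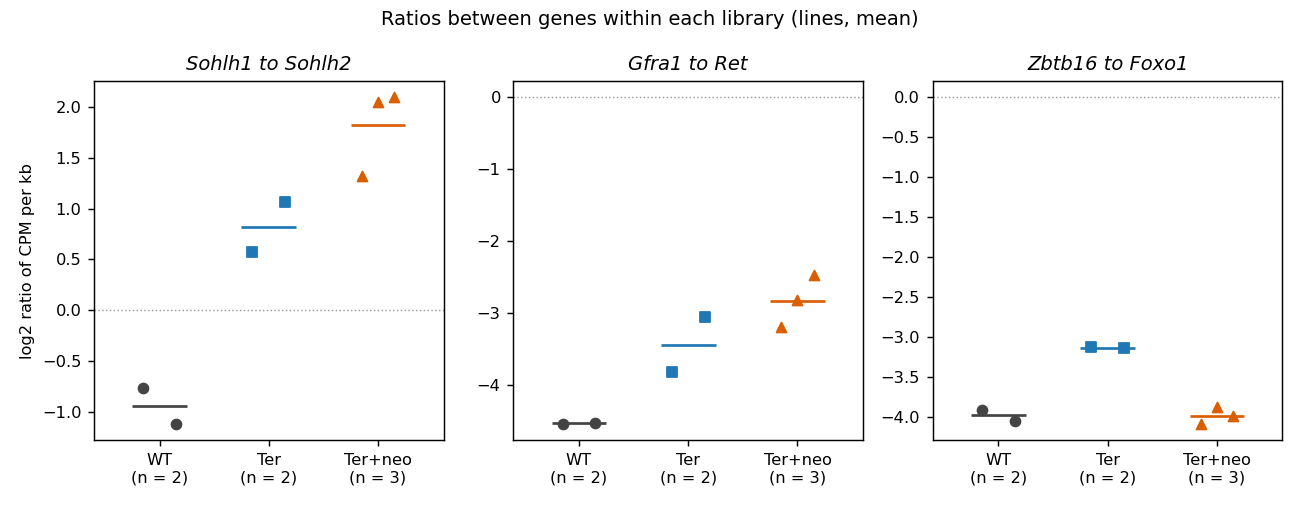
log2 ratio of CPM per kb between gene pairs in each library (points) with the mean of each genotype (lines). The dotted line marks equal levels, and the ratio of Sohlh1 to Sohlh2 lies below it in WT (mean -0.94) and above it in H19Ter/H19Ter (0.82) and H19Ter+neo/H19Ter+neo (1.82).

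For each of the 10 genes, the most similar profiles were sought by Pearson correlation of log2 CPM over the 7 libraries among 9978 other genes with a mean log2 CPM of at least 3. Every H19Ter+neo/H19Ter+neo library was deeper than all others, so depth cannot be told apart from that genotype, and the correlations are a description. The closest were Foxp2 and Unc5d for Gfra1 (both 0.99), Eya2 and Mta1 for Etv5 (both 0.998), Gas2l1 (0.997) and Mapk13 (0.996) for Ret, and Odc1 (0.999) and Ube2e1 (0.998) for Sohlh2. For Sohlh1 they were Gm10704 (0.997) and Cln3 (0.996), for Foxo1 Trmt61a (0.995) and Ankrd13c (0.99), for Kit Cyb5d2 and Rrm2b (both 0.99), and for Zbtb16 Map1s and Aff1 (both 0.99). For Eomes they were Siah2 (0.98) and Slc35c2 (0.96), and for Id4 Bzw2 (0.97) and Slmap (0.95). Spearman correlations of the same pairs were at least 0.857. Graded profiles were common: 1015 genes correlated above 0.95 with Etv5, 913 with Ret and 552 with Sohlh2, but 39 with Zbtb16, 5 with Eomes and 1 with Id4.

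All 16 listed male fetal germ cell markers had values, and they summed to 5404 to 5578 CPM in WT, 5224 to 5404 CPM in H19Ter/H19Ter and 6033 to 6211 CPM in H19Ter+neo/H19Ter+neo. Of the 16, 3 were called higher and 4 lower in H19Ter/H19Ter, and 8 higher and 3 lower in H19Ter+neo/H19Ter+neo. The shares over all genes were 14.1% higher and 11.0% lower in H19Ter/H19Ter, and 27.7% and 26.7% in H19Ter+neo/H19Ter+neo. Pou5f1, whose promoter drives the EGFP used for sorting, had a log2 difference from WT of -0.08 in H19Ter/H19Ter (adjusted p = 0.536) and fell in H19Ter+neo/H19Ter+neo (-0.66, SE 0.08, adjusted p = 0.000143). Dnmt3l, the cofactor of de novo DNA methylation, rose in both mutants (1.20 and 1.21), as did the piRNA pathway gene Piwil4 (0.47 and 0.85), and Mael, of the same pathway, rose in H19Ter+neo/H19Ter+neo (0.51). The 4 called lower in H19Ter/H19Ter were Dazl (-0.45, adjusted p = 0.00597), Dnd1 (-0.45, adjusted p = 0.00691), Ddx4 (-0.27, adjusted p = 0.00993) and Nanos2, given above. Ddx4 (-0.15, adjusted p = 0.0352) and Nanos2 also fell in H19Ter+neo/H19Ter+neo. There Dazl was at -0.13 (adjusted p = 0.178) and Dnd1 at -0.04 (adjusted p = 0.723).

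Markers of other testis cells were present at low levels and differed between genotypes in both directions. Interstitial and peritubular markers (14 of 14) summed to 61.3 to 76.7 CPM in WT, 75.2 to 145 in H19Ter/H19Ter and 63.1 to 104 in H19Ter+neo/H19Ter+neo, highest in H19Ter/H19Ter replicate 3 and H19Ter+neo/H19Ter+neo replicate 5. Of these 14, 2 rose and 0 fell in H19Ter/H19Ter and 3 rose and 1 fell in H19Ter+neo/H19Ter+neo. Over all genes, 14.1% were called higher and 11.0% lower in H19Ter/H19Ter, and 27.7% and 26.7% in H19Ter+neo/H19Ter+neo. Pdgfrb rose in both (2.002 and 1.72, adjusted p = 0.000136 and 2.7e-05), as did Postn (0.90 and 1.18, adjusted p = 0.00953 and 0.000339), while Col1a1 fell in H19Ter+neo/H19Ter+neo (-0.64, adjusted p = 0.0463). Without the 2 libraries with the highest sums every call of the 10 genes against WT was kept, and Gfra1 also passed in H19Ter/H19Ter (log2 difference 0.78, adjusted p = 0.0290). Between the mutants the call for Ret was then lost (-0.40, adjusted p = 0.0512) and Sohlh2 passed (-0.56, adjusted p = 0.0460).

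Endothelial markers (10 of 11) summed to 76.3 to 83.6 CPM in WT, 73.4 to 76.7 in H19Ter/H19Ter and 64.9 to 67.9 in H19Ter+neo/H19Ter+neo. The lower sums came with falls of Pecam1 (-0.57 and -1.10) and Plvap (-0.87 and -1.02), whereas Flt1 (0.75 and 0.74) and Tek (0.53 and 0.46) rose. In all 2 rose and 2 fell in H19Ter/H19Ter, and 6 rose and 3 fell in H19Ter+neo/H19Ter+neo, with median log2 differences of 0.54 and 0.41. The shares over all genes given above are the background for these counts and for those of the Sertoli markers. Macrophage and leukocyte markers (3 of 10) summed to 4.78 to 5.72 CPM in WT, 6.84 to 7.72 in H19Ter/H19Ter and 5.75 to 6.51 in H19Ter+neo/H19Ter+neo, so each mutant library was above WT. Mrc1 rose in both mutants (1.10 and 1.04), and Adgre1 rose in H19Ter+neo/H19Ter+neo (1.94). Sertoli markers (12 of 14) summed to 35.7 to 36.3, 38.4 to 44.5 and 31.8 to 41.8 CPM in the same order of genotypes, and Leydig markers (8 of 10) to 33.2 to 38.4, 33.8 to 48.4 and 29.7 to 60.4 CPM. Among Sertoli markers 2 rose and 1 fell in H19Ter/H19Ter, and 1 rose and 2 fell in H19Ter+neo/H19Ter+neo. Sox9 rose in both (1.40 and 0.83), and Gata4 rose (0.54) and Cst9 fell (-1.76) in H19Ter/H19Ter. Amh (-0.92) and Wt1 (-0.78) fell in H19Ter+neo/H19Ter+neo. The 1 measured erythroid marker of 8, Alas2, lay at 1.66 to 2.75, 2.66 to 3.53 and 4.34 to 5.82 CPM. The part of these cells in the results was not tested. In sorted bulk samples, fewer cells that carry a transcript and less of it in each cell cannot be told apart.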

How the data were processed

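The 7 total RNA-seq libraries of EGFP-positive prospermatogonia were grouped by the genotype in the labels. Per the paper's methods and the submitters' processing notes, the authors used Trim Galore 0.6.0 for trimming, STAR 2.7.8 for alignment to mm10 and for counting per gene, and deepTools and edgeR besides. The sources used here do not name the annotation of the counting or its strand. The deposited values are log2 CPM with a mean prior count of 2 reads. Undoing the log and the prior count gave whole read pairs for 100% of values within 0.001 of a read, and levels are CPM of these reads.

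The log2 values were tested as deposited with limma 3.58.1 (R 4.3.3), with genotype as the only term, a mean-variance trend and Benjamini-Hochberg adjustment over 20643 genes. The planned filter (0.1 CPM or more in 2 libraries or more) left out 0 genes. The fit was checked on simulated data. Coordinates and exon lengths come from GENCODE vM21 (GRCm38), which names 20615 IDs, and promoters from RefSeq. Python 3.11.15 and matplotlib 3.10.9 were used. Genes named are the 10 members, the 2 closest profiles of each, and up to 3 genes of each of 9 lists with the smallest p and a mean log2 CPM of at least 1; other genes, such as those that complete a small count, were named after their values were seen, and some list genes are not reported here by name. Members and lists were chosen with earlier results of these data known. Intervals on counts cover counting error only, and more read pairs in H19Ter+neo/H19Ter+neo make its counts the more precise. Alternatives were other prior counts, filters, scalings and lengths, voom, fits of 2 groups, removal of the GC and length trend, a 1.5-fold minimum, Spearman correlation and each library left out.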

Additional observations from a re-analysis of the deposited data

Results flagged for a closer look

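For 4 of the 10 genes the effect of H19Ter+neo/H19Ter+neo differed from that of H19Ter/H19Ter by the test of the difference itself (limma, 2 against 3 libraries). Over all genes, 12.5% were called higher and 15.2% lower in this comparison. Zbtb16 was lower in H19Ter+neo/H19Ter+neo by -0.93 on the log2 scale, Etv5 by -0.76 and Ret by -0.47, and Sohlh1 was higher by 0.50. Their adjusted p-values were 0.000377, 0.00295, 0.00637 and 0.00207. Groups of 2 or 3 libraries were not searched for single outlying values.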

How the results depend on the processing

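No paired analysis was possible because the genotypes share no replicate numbers. Genes called numbered 5187 in H19Ter/H19Ter against WT, 11231 in H19Ter+neo/H19Ter+neo against WT and 5717 between the mutants. With a minimum change of 1.5-fold they numbered 361, 2286 and 207, since this tests for larger changes. The 6 calls among the 10 genes in H19Ter/H19Ter and the 4 between the mutants were then lost, as were those of Gfra1, Foxo1 and Kit in H19Ter+neo/H19Ter+neo. Voom gave 3092 genes in H19Ter/H19Ter, and the cause was not tested. Leaving out each library gave 1408 to 5870, 7730 to 11118 and 2326 to 5404 genes, lowest without WT replicate 2 in the first (2260 and 1892 without H19Ter/H19Ter replicates 3 and 4) and without H19Ter/H19Ter replicate 3 in the last (2994 without replicate 4). Without H19Ter/H19Ter replicate 3 and H19Ter+neo/H19Ter+neo replicate 5 together, chosen after seeing the data, 2550 genes were called between the mutants. Fewer samples enter these fits.

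Changes of sign were seen in genes that had not passed the test. Id4 in H19Ter/H19Ter became -0.15 without WT replicate 1, and -0.02 without H19Ter/H19Ter replicate 3, alone or with H19Ter+neo/H19Ter+neo replicate 5, where its values without 1 library ran up to 0.20. In H19Ter+neo/H19Ter+neo these ran from -0.23 and it became 0.12 without WT replicate 2 and 0.02 without H19Ter+neo/H19Ter+neo replicate 6. Gfra1 between the mutants became -0.11 without H19Ter/H19Ter replicate 3 and 0.40 without replicate 4. Foxo1 passed in H19Ter/H19Ter once the GC and length trend was removed (adjusted p = 0.0499). In the other 16 settings planned, these calls held: Sohlh1 and Zbtb16 in H19Ter/H19Ter, Sohlh1, Ret, Etv5, Kit and Sohlh2 in H19Ter+neo/H19Ter+neo, and Etv5, Zbtb16 and Sohlh1 between the mutants. Gfra1 and Eomes, with 115 to 440 read pairs a library, have the least depth of the 10 genes.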
